A study of Acipenser schrenckii with 2 samples.

Results

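The 48 custom probes of a fish miRNA chip, named novel_ with a number, were compared between gonad RNA of 1 male and gonad RNA of 1 female Amur sturgeon (Acipenser schrenckii). They were chosen as the experimental probes whose source the chip design gives as custom, 48 of 663, each spotted 5 times on either array (240 custom spots per array). The other 615 probes, called standard here, carry names of miRNAs known from other fishes. Each custom target, the RNA sequence its probe is built to catch, was set against every standard target: 10 custom targets had 0 to 3 mismatches to the nearest and 38 had 4 or more. On these arrays novel_11, a target close to let-7, gave 2.49-fold more signal in the male gonad after normalization. novel_6, a target with no close standard relative, gave 2.44-fold more in the female gonad, and most other custom probes were dim. With other scalings both sizes changed, and that of novel_6 fell below 2-fold in some. The sources used here do not say where the custom sequences came from, and a probe is no evidence that the sturgeon holds exactly that RNA.

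Both fish were 11 months old, which per the labels is an early stage of sex differentiation. The labels give a normal condition and name no treatment for either, and each array was hybridised with Cy3-labelled small RNA of 1 fish. With 1 fish and 1 array per sex there was no test between the sexes and no p-value. Every ± below is an SD over 5 repeat spots of 1 array (n = 5) and is technical, so no difference here was set against the spread between fish. In whole gonad, fewer cells of a type and less RNA per cell cannot be told apart.

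A miRNA is a short RNA cut from a hairpin precursor, and either arm of the hairpin can yield a mature strand. The strand is held by an Argonaute protein and pairs with mRNAs mainly through its seed, bases 2 to 8 from the 5′ end, which lowers the output of those mRNAs. miRNAs with one seed form a family, and members often differ by a few bases beyond the seed. In gonads, miRNAs are known to take part in germ cell development and in the function of the somatic cells around the germ cells. A hybridisation probe can also catch a near-identical relative of its target, so probes for close relatives need not read separate RNAs.

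The 2 custom targets closest to let-7 are shown first, since both passed the size rule used below toward the male gonad, as did 4.69% of the detected probes of the whole chip. let-7 is a miRNA family known for promoting differentiation in many animals. Capitals mark the bases that differ between each custom target and the standard target it was set against.
novel_4: AgagguaguUgguuguauaguu
dre-let-7a: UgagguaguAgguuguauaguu
novel_11: AgagguagCagguugCauaguu
dre-let-7a: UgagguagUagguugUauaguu
In the notation used here the first letter is the base of the standard target, the number is the position from 1 at the 5′ end of the custom target, and the last letter is the base of the custom target. novel_4 carried U1A and A10U relative to dre-let-7a, and novel_11 carried U1A, U9C and U16C. The seed of both was unchanged and is shared by 17 standard targets. novel_4 and novel_11 differed from each other by 3 mismatches.

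The other 8 close custom targets follow with their nearest standard targets, to show which bases set the class. Capitals again mark the differing bases.
novel_1: cauuauuacuGuugguacgcg
dre-miR-126a-5p: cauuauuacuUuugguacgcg
novel_12: agugguucuAaacaguucaaca
ccr-miR-203b-5p: agugguucuUaacaguucaacag
novel_39: ucaguuaucUcagugcugaugcu
ola-miR-101a-5p: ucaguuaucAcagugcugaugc
novel_46: uguaaacauccUcgacugga
ccr-miR-30d: uguaaacauccCcgacuggaagc
novel_52: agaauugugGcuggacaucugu
ipu-miR-219a: agaauugugCcuggacaucugu
novel_13: uuaagacuugcagugauguuuac
dre-miR-499: uuaagacuugcagugauguuua
novel_63: cugguuucaGGugguggCuuaga
ipu-miR-29c: cugguuucaCAugguggUuuaga
novel_47: cuauacaGAcuaUugccuuccu
pol-let-7a-3p: cuauacaACcuaCugccuucc
novel_13 had 0 mismatches and was 1 base longer than dre-miR-499, a miRNA known from an intron of a muscle myosin gene. A single mismatch set novel_1 (U11G), novel_12 (U10A), novel_39 (A10U), novel_46 (C12U) and novel_52 (C10G) apart from their nearest standard targets. Of these, novel_12, novel_39 and novel_46 also differed from theirs in length at the 3′ end. Among the families concerned, miR-126 is known from endothelium, miR-203 from skin epithelium and miR-219 from myelinating cells of the nervous system. The miR-30 family is abundant in many tissues. novel_63 carried C10G, A11G and U18C relative to ipu-miR-29c. novel_47 carried A8G, C9A and C13U relative to pol-let-7a-3p, the 3′ arm product of a let-7 hairpin.

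All 9 close targets with a change had at least 1 at bases 9 to 12, just beyond the seed. Among pairs of standard targets at 1 to 3 mismatches, 35 of 67 did (52.2%). The window was not fixed before the changes of the 9 targets were seen, so this describes them and is no test. The seed was identical to that of the nearest standard target in 9 of the 10, novel_47 being the exception through A8G. Among the 38 other custom targets, the seed of novel_24 was shared with a standard target and the remaining seeds were not.

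The 5 brightest custom probes with 4 or more mismatches are shown with their seeds (bases 2 to 8) in capitals, since no standard target shares these seeds. novel_8 and novel_9 are named here after their values were seen.
novel_6: uGAUAGAAcuccgugccacaggc
novel_8: cAUCGGGAagcucgugucagcc
novel_9: aCGGAAUCauuucugcacagacu
novel_43: gGAUUCCUggcaauacuguucu
novel_60: aGGUGGGGaguuugacug
Their nearest standard targets had 5 mismatches for novel_9, 6 for novel_43, 7 for novel_6 and novel_60 and 8 for novel_8. novel_60 was the shortest custom target with 18 bases, and its nearest match, dre-let-7h at 7 mismatches, tied with 5 others. Among the 38, novel_23 had 4 mismatches, 11 probes had 5, 14 had 6, 11 had 7 and novel_8 had 8. The class limit thus fell where targets were few, though not at an empty gap. novel_23 lay just outside at 4, with G1A, G8A, A16G and U21G relative to dre-miR-736, while novel_11, novel_47 and novel_63 lay just inside at 3.

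Some custom targets were complementary to another target on the chip, as the arms of a hairpin are. A search for at least 16 Watson-Crick pairs with 3′ overhangs of 0 to 3 bases on either side found a partner for 9 of the 48 custom targets (18.8%) and for 107 of the 615 standard targets (17.4%). The class of 0 to 3 mismatches held 4 of the 9 and the class of 4 or more held 5. Where several partners met the search, as the 2 of novel_43 and the 5 of novel_57, the one with the most Watson-Crick pairs was taken. Ties went to the most pairs with G:U counted, then to the first name. The partners taken in the second class are shown, chosen by sequence alone. Watson-Crick paired bases are in capitals and both strands are written 5′ to 3′.
novel_43: GGAUUCCUGGcAAuACUGuuCu
dre-miR-145: GucCAGUuUUcCCAGGAAUCCc
novel_57: uAAAGUUCUGUAAUaCACUuAga
dre-miR-148: UcAGUGcAUUACAGAACUUUgu
novel_21: GAuAUGUGAGGUcGGACCUguc
dre-miR-2188-5p: aAGGUCCaACCUCACAUgUCc
novel_27: UuUGCAGAAUCUGACCAaUUu
novel_38: AAcUGGUCAGAUUCUGCAcAga
novel_43 paired with dre-miR-145 over 17 of 21 facing bases, novel_57 with dre-miR-148 over 18 of 21, novel_21 with dre-miR-2188-5p over 17 of 20, and novel_27 with novel_38 over 18 of 20. Thus 3 targets without a close standard relative by the class limit faced a named standard miRNA, and novel_27 and novel_38 faced each other. For novel_21 the nearest standard target, at 5 mismatches over 21 bases, was dre-miR-2188-3p, by its name the other arm of dre-miR-2188-5p. No hairpin sequence was used here, so none of these pairs is shown to come from 1 precursor.

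As sequences, the custom targets had the size of miRNAs, though none was compared here with RNAs other than the targets on the chip. The length of the custom targets ran from 18 to 24 bases with a median of 22, and 24 of 48 had exactly 22 bases. Their GC content had a median of 45.2% (26.1% to 68.2%), against 45% for the standard targets. A 5′ U, the first base that is most frequent among animal miRNAs, began 14 of 48 custom targets (29.2%), against 321 of 615 standard targets (52.2%). A began 20 custom targets (41.7%), against 157 standard targets (25.5%).

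Empty spots had a median intensity of 80.5 on the male and 86.7 on the female array, and the detection limit, their 95th percentile, was 113 on the male and 103 on the female array. The limit therefore lay 32.3 above the empty-spot median on the male array and 16.8 on the female array. A probe was called detected where at least 3 of its 5 spots exceeded the limit. Of the gonad marker miR-202, ipu-miR-202 was detected on both arrays (8.58 male, 6.68 female on the log2 scale) and dre-miR-202-5p and dre-miR-202-3p on neither. Markers of other tissues gave signal too: 15 male and 17 female detections among 19 striated muscle probes, 5 and 6 among 8 kidney and gut probes, 2 and 2 among 4 liver probes and 1 and 1 for the red cell probe. Of 4 probes for the germ cell miRNAs miR-34b and miR-34c, 3 were detected on the male and 2 on the female array.

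On the male array 21 of 48 custom probes were detected (43.8%) and on the female array 33 (68.8%), against 66.5% and 72.0% of the standard probes. All 21 male detections were also female detections, 12 custom probes were detected on the female array only and 15 on neither. The detected share was larger for targets close to a standard target: 8 of 10 on the male array (80%) and 9 of 10 on the female array (90%), against 13 of 38 (34.2%) and 24 of 38 (63.2%) of those with 4 or more mismatches. With a limit at the same distance above the empty-spot median on both arrays, the counts were 21 male and 22 female, 8 and 8 for the close class and 13 and 14 for the other. At that limit the arrays differed by 1 custom probe, and the close class still had the larger detected share, with 80% on either array against 34.2% male and 36.8% female. The standard probes had 66.5% male and 59.8% female at it. With the 99th percentile of empty spots as the limit, 14 custom probes were detected on the male and 10 on the female array, so the order of the arrays turned. The detected custom targets had a median GC content of 43.5% and the undetected ones 47.8%.

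The 12 probes detected on the female array only were all dim. Their mean raw intensity ran from 91.8 to 148 on the male array and from 104 to 131 on the female array. With at least 4 spots above the limit, 10 of them were novel_13, novel_17, novel_19, novel_32, novel_49, novel_50, novel_58, novel_61, novel_66 and novel_74, and the remaining 2, novel_48 and novel_73, had 3. Both as raw and as normalized values, the spots of the arrays overlapped except for novel_19 and novel_66 (over the chip, 43.1% of detected probes had no overlap). novel_19 had 101 to 119.35 male and 119.37 to 146 female, and novel_66 had 91.0 to 100.4 male and 105 to 119.7 female.

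The 15 probes detected on neither array were novel_21, novel_22, novel_23, novel_26, novel_27, novel_33, novel_34, novel_35, novel_36, novel_38, novel_41, novel_42, novel_52, novel_53 and novel_59. Their mean raw intensity ran from 90.0 to 105 on the male and from 93.6 to 105 on the female array. The medians of 93.8 male and 100.4 female were close to those of undetected standard probes, 96.7 male and 99.2 female. novel_52, with the single change C10G to ipu-miR-219a, was among them, and ipu-miR-219a itself was detected on neither array. RNA matching these targets was not detectable at this signal, which does not show its absence.

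Levels are given on the log2 scale after background correction and quantile normalization, which gives both arrays 1 distribution of values. Across all members the median level was 6.52 male and 6.70 female, against 8.11 and 8.08 for the standard probes. The close class had medians of 7.65 male and 7.96 female and the other class 6.45 and 6.60. These classes hold different probes, and a brighter probe need not mean more RNA. A mean raw intensity of at least 1000 was reached by 8 custom probes on the male array, 3 close and 5 other, and by 7 on the female array, 3 close and 4 other. Of the 38 targets without a close relative, then, novel_6, novel_9, novel_43 and novel_60 gave strong signal in both gonads, and novel_8 read 1255 male and 981 female. Whether these targets are miRNAs was not tested.

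After quantile normalization the custom probe that differed most between the gonads was novel_11, one of the let-7-like targets. Its raw spots had a lowest value of 6107, a median of 6745 and a highest value of 7305 on the male array, against 1887, 1938 and 2122 on the female array. Every male spot lay far above every female spot. After normalization novel_11 stood at 12.47 ± 0.11 in male gonad and 11.16 ± 0.07 in female gonad, a difference of 1.32 or 2.49-fold. The authors' deposited table gives 5731 male and 2181 female, 2.63-fold. The size rule asked for a log2 difference of 1 or more, detection on the brighter array and male and female spots that did not overlap. novel_11 passed it under all 16 alternative ways of making the values, with differences from 1.22 to 2.04. For the authors' deposited table, which holds 1 value per probe, only size and detection were asked. Marker probes higher in the male gonad by the same rule were 3 of the 4 germ cell probes, dre-miR-34b (2.30), ipu-miR-34b (1.73) and dre-miR-34c (1.52). So were 2 of the 4 liver probes, ccr-miR-122 (1.32) and dre-miR-122 (1.26), and 1 of the 3 gonad probes, ipu-miR-202 (1.90). The germ cell probes stood at 6.35 to 11.74 in male gonad and 6.29 to 10.005 in female gonad, and the liver probes at 6.22 to 7.92 and 6.15 to 6.59. Their part in the value of novel_11 was not tested.

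novel_4, the other let-7-like target, passed the rule with 1 far female spot included. Its male spots ran from 8778 through a median of 9204 to 9499. Its female spots read 622, 4755, 5012, 5089.9 and 5239.8, so 4 of them lay together and 1 stood far below. All male spots lay above all female spots with or without the low one. The level was 13.01 ± 0.04 in male gonad and 11.98 ± 1.36 in female gonad, a difference of 1.04 or 2.05-fold. Without the low spot the difference was 0.52, and without that repeat spot on both arrays 0.48, and neither passed. The authors' deposited table gives 7860.3 male and 5657 female, 1.39-fold, which is 0.47 on the log2 scale with 50 added to each value. The pixel SD within the low spot was 559.6, against 72.7 to 146 in the other 4 female spots of novel_4.

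novel_6, without a close standard relative, was the custom probe higher in the female gonad. Its male spots had a lowest value of 1167, a median of 1286 and a highest value of 1357, against 2034, 2068 and 2123 for the female spots. The arrays did not overlap, and novel_6 was the only custom probe of at least 1000 raw intensity on both arrays that was brighter on the female array before any scaling. Its level was 9.97 ± 0.09 in male gonad and 11.26 ± 0.02 in female gonad, a difference of -1.29, or 2.44-fold higher in the female. The authors' deposited table gives 928.9 male and 2511 female, 2.70-fold higher in the female. In that table novel_6 thus differed slightly more than novel_11 (2.63-fold). Kidney and gut markers differed by a similar size: of the 8 probes, 4 were higher in the female gonad by the same rule, ccr-miR-194 (-1.30), dre-miR-194a (-1.30), ola-miR-192-5p (-1.20) and dre-miR-192 (-1.02). These 4 are among the 8 female-higher probes of the whole chip. The 8 marker probes stood at 6.27 to 9.70 in male gonad and 6.52 to 11.00 in female gonad, and their part in the value of novel_6 was not tested. The direction held under all 16 alternatives, but the size did not: the difference was -0.71 without normalization, -0.91 with the arrays set level on the standard probes and -0.47 with the P control probes as the yardstick, and it did not pass in these 3.

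Of the 33 custom probes detected on at least 1 array, then, 2 were higher in the male gonad, novel_11 and novel_4, where the share over all 490 detected probes of the chip was 4.69%. The female-higher count was 1, novel_6, where the share over the chip was 1.63%. In either direction that is 3 of 33, against 6.33% of the chip's detected probes. The 9 detected probes of the close class held both male-higher calls, and the 24 detected probes of the other class held the female-higher call. Counts this small are near the chip's own share and are no result about the custom probes as a set. The spots of the arrays did not overlap for 17 of the 33 (51.5%), against 43.1% of all detected probes.

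The remaining 30 detected custom probes differed by -0.59 to 0.02 and none passed the rule. The value of 0.02 belonged to novel_49 and rested on 1 far male spot, and with far spots, those over 0.5 on the log2 scale from the median of their probe, left out all 30 lay from -0.65 to -0.05. The 5 bright ones among them differed by -0.53 to -0.13. novel_46, the miR-30-like target, read 12.40 ± 0.15 in male gonad and 12.53 ± 0.03 in female gonad, with raw means of 6710.4 and 5006. novel_60 read 12.05 ± 0.18 and 12.26 ± 0.06, with raw means of 5181 and 4046 and overlapping normalized spots. novel_43 read 11.09 ± 0.11 in male gonad and 11.61 ± 0.11 in female gonad, a difference of -0.51. For novel_9 and novel_8 the differences were -0.53 and -0.35. Each of these 5 lay below 0 after normalization although each raw mean was higher on the male array.

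At lower signal the differences were below 0 as well. novel_12, the miR-203-like target, read 8.79 ± 0.08 in male gonad and 9.36 ± 0.10 in female gonad, a difference of -0.57. novel_47 had the largest difference below the size limit, -0.59, with 6.88 ± 0.10 in male gonad and 7.46 ± 0.13 in female gonad. novel_31 (-0.55), novel_44 (-0.53) and novel_75 (-0.41) lay below 0 as well, at levels of at most 7.03 in male gonad and 7.58 in female gonad. novel_1, novel_39 and novel_63 differed by -0.39, -0.22 and -0.10.

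Several of the dimmest members detected on both arrays lay close to the detection limits. The raw mean of novel_31 was 167 male and 165 female, that of novel_25 was 123 and 125, and that of novel_72 was 121 and 128. novel_44 read 121 male and 138 female and novel_75 read 122 and 132, the female array being the brighter one for both. novel_24, whose seed is shared with a standard target, read 138 male and 126 female, and novel_30 read 209 and 159. After normalization novel_24, novel_25, novel_30 and novel_72 differed by -0.14, -0.27, -0.14 and -0.35. novel_25, novel_30 and novel_72 lie outside the rule for named probes and are given to complete the account of the members. The spot SD of a custom probe had a median of 0.11 on the male and 0.14 on the female array.

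Most custom probes therefore lay slightly to the female side after normalization. Of the 21 detected on both arrays, 19 were below 0, with a median of -0.35, against 209 of 395 standard probes (52.9%) with a median of -0.03. The exceptions were novel_4 and novel_11. The direction rests on the scaling: before normalization 14 of the 21 were above 0 with a median of 0.18, while the standard probes had a median of 0.45. Over the 33 detected on either array the median was -0.22 after quantile normalization and turned to 0.20 with scaling to the P control probes. Of these 33, 12 were counted through the female array alone. For probes detected on both arrays, the custom median minus the standard median was -0.47 to -0.18 over quantile normalization and the 16 alternatives. Many custom probes were dim, and the empty-spot median was higher on the female array (80.5 male, 86.7 female). Among probes detected on both arrays and below a mean level of 8, the median was -0.31 for 12 custom and 0.07 for 82 standard probes. At a mean level of 10 or more it was -0.28 for 8 custom and -0.03 for 209 standard probes, so the shift was not limited to dim probes. The part of the background in this shift was not tested.

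Each close custom probe was then set beside its nearest standard probe, which shares almost its whole target. Of the 10 pairs, 7 had both probes detected. The male minus female differences within these pairs lay a median of 0.28 apart, against 0.36 over 40 pairs of standard probes at 1 to 3 mismatches. That custom median is the gap of novel_13 and dre-miR-499, a pair near background. With scalings that use 1 factor per array it was 0.594, against 0.347 for the standard pairs, and with subtraction of the empty-spot median 0.759 against 0.559. A gap of at least 1 occurred in 1 of the 7 pairs and in 4 of the 40. Which of the sets had the wider gaps thus changed with the processing.

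The gap of at least 1 belonged to novel_11. dre-let-7a stood at 13.33 ± 0.11 in male gonad and 13.25 ± 0.07 in female gonad, a difference of 0.09, while novel_11 differed by 1.32. Of the 2 standard targets within 3 mismatches of novel_11, the other, ola-let-7a-5p, differed by 0.04. At 4 mismatches, however, the male-higher probes dre-let-7c (1.29), dre-let-7g (1.60) and ola-let-7g (1.38) stood beside ola-let-7e (0.75), dre-let-7f (0.16), ola-let-7c (0.10) and dre-let-7e (-0.06). Without 1 low female spot dre-let-7c differed by 0.74 and did not pass. novel_4 had 9 standard targets within 3 mismatches, with differences from -0.43 (dre-let-7j) to 1.60, or from -0.05 to 1.61 with far spots left out. The 3 at 2 mismatches to novel_4, dre-let-7a among them, ran from 0.04 to 0.68. The let-7 probes within 3 mismatches of novel_4 thus held small differences as well as differences as large as that of novel_11. The 2 within 3 mismatches of novel_11 itself held small differences only, and large ones stood at 4 mismatches.

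Other pairs differed less. novel_46 differed by -0.13 and ccr-miR-30d by -0.02. The 4 standard targets at 1 mismatch to novel_46, ccr-miR-30d among them, ran from -0.37 to 0.11. novel_63 differed by -0.10 and ipu-miR-29c by 0.07. Both pairs, as set here, lay near 0. novel_47 differed by -0.59 and pol-let-7a-3p by -0.35, both to the female side. novel_12 differed by -0.57 and ccr-miR-203b-5p by 0.07. The 4 standard targets at 1 mismatch to novel_12 ran from -0.12 to 0.16. Of the remaining gaps, only that of novel_4 against dre-let-7a was wider, with 1 far female spot of novel_4 included. With far spots left out novel_4 differed by 0.52 and dre-let-7a by 0.03, and the gap of novel_12 was then the wider one. novel_13, with 1 male and 5 female spots above the limit, read 6.49 ± 0.16 in male gonad and 6.71 ± 0.17 in female gonad. dre-miR-499 differed by -0.49, or by 0.03 without 1 far female spot, so that pair has no firm value. ipu-miR-499, also at 0 mismatches to novel_13, differed by 0.002.

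In 2 pairs the custom probe gave signal where its nearest standard probe did not. novel_1 read 285.9 male and 242.8 female in raw mean intensity, and all its spots exceeded the limit on both arrays. dre-miR-126a-5p, which differs from it by the 1 change U11G, read 102 male and 98.9 female, with 0 and 1 spots above. novel_39 read 261.8 male and 190.3 female with all spots above the limit. ola-miR-101a-5p, at the 1 mismatch A10U and without the last base of novel_39, read 96.7 male and 92.8 female with 0 spots above on either array. These are readings of separate probes, and their brightness was not calibrated.

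The complementary partners were read side by side as well. novel_43 differed by -0.51 and dre-miR-145, a miRNA of smooth muscle and mesenchyme, by 0.07, at 14.51 ± 0.10 in male gonad and 14.45 ± 0.03 in female gonad. novel_57 differed by -0.27, at 7.46 ± 0.15 in male gonad and 7.73 ± 0.11 in female gonad, and dre-miR-148 by 0.57, at 10.16 ± 0.16 and 9.59 ± 0.06. Except for dre-miR-148, which stayed positive under every alternative, these signs rest on the scaling. Without normalization novel_43 and dre-miR-145 differed by 0.03 and -0.02, and novel_57 and dre-miR-148 by 0.34 and 1.31. novel_21 was undetected, while dre-miR-2188-5p stood at 9.91 ± 0.18 in male gonad and 10.72 ± 0.15 in female gonad. novel_27 and novel_38 were both undetected.

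Of the close class, novel_1 paired with ccr-miR-126-3p over 17 of 21 bases, at -0.39 and -0.55. novel_39 paired with dre-miR-101a over 16 of 20, at -0.22 and 0.90. novel_12 paired with ipu-miR-203c over 19 of 20 and novel_4 with pol-let-7a-3p over 16 of 20. The search found 4 partners for novel_1, 3 for novel_12, 2 for novel_39 and 1 for novel_4, and only 1 for each is read here. novel_12 differed by -0.57 and ipu-miR-203c by -0.17, or by 0.20 without 1 far female spot. novel_4 differed by 1.04 and pol-let-7a-3p by -0.35. novel_4 and dre-miR-101a stayed positive under every alternative, while the signs of the other probes in these pairs rest on the scaling. Without normalization novel_1 and ccr-miR-126-3p differed by 0.23 and 0.06, novel_39 and dre-miR-101a by 0.47 and 1.47, and novel_4 and pol-let-7a-3p by 1.47 and 0.42.

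Single spots decided a few dim readings. novel_49 had 1 male spot of 333.2 while the other 4 read 94.9 to 118, and its pixel SD was 98.7, against 5.38 to 17.3 in the others. novel_74 had 1 male spot of 202.4 while the others read 97.7 to 103.5, with a pixel SD of 134 against 4.90 to 9.29. Neither probe was detected on the male array. Without the far spot the difference of novel_49 was -0.30, against 0.02 with it, and that of novel_74 was -0.35, against -0.14. novel_49, novel_59 and novel_61 had targets within 2 mismatches of each other and can read the same RNA, and all were dim, with raw means of 148, 90.0 and 101 male and 114, 100.4 and 110.4 female.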

How the data were processed

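Scanner values and a value table of 2 arrays were used, grouped by the sex in the labels. Per the file headers, the scanner files hold the median Cy3 intensity and pixel SD of each spot, not corrected for background, written with digit separators that were removed on reading. The authors' deposited table holds 1 linear intensity per probe with an unstated normalization and served as an alternative. Per the labels' protocols, small RNAs were size-selected, poly(A)-tailed and ligated to a tag for dye staining. Scanner and software names were not given in the sources used here.

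In R 4.3.3 with limma 3.58.1, intensities were corrected by normexp (offset 50), averaged as log2 over 5 spots and quantile normalized over 663 probes. Detection rested on 361 empty spots. Precision is limited by the number of arrays, 1 for each sex. Python 3.11.15 with pandas 2.3.3 and numpy 2.4.6 did the rest. Mismatches were counted without gaps over an overlap of at least 16 bases with at most 4 bases overhanging, which were not counted. Ties went to the longest overlap, then to the fewest overhanging bases, then to the first name in alphabetical order. The size rule was tried on simulated arrays with changes larger than those called here and without far spots. The mismatch count and the base pairing were tried on altered targets and on perfect complements only. These checks show that the steps ran as meant and do not measure their error rates. The limits of the search for partners were not tested.

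Members, classes, lists and rules were chosen with earlier results of these data known. Named were probes past the rule or changing call under an alternative, the close class, the 5 brightest of each array, the 5 highest and 5 lowest differences among probes detected on both arrays, and those detected on 1 array with at least 4 spots. Alternatives covered scaling, background step, spot summary, the deposited table and the limits. Genome positions were not analysed here.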

Additional observations from a re-analysis of the deposited data

How the results depend on the processing

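The male-higher count of 2 became 1, novel_11 alone, with 75th percentile scaling, the median of spots, spots over 0.5 from their probe's median left out and the authors' deposited table. It was 1 to 2 when each repeat spot was left out in turn, with 1 when novel_4 lost its low female spot, and 0 at a size limit of 1.5. The female-higher count of 1 became 0 without normalization, with P control scaling, with the standard probes' median and at the limit of 1.5. It became 7 with subtraction of the empty-spot median, which added novel_19, novel_31, novel_44, novel_47, novel_66 and novel_75. The female-higher count over the whole chip rose from 8 to 31 in that setting. Detections were 14 male and 10 female at the 99th percentile of empty spots, which turned their order, and 21 male and 31 to 33 female without 1 repeat spot.

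The median difference of detected custom probes was -0.60 with 75th percentile scaling, -0.041 without normalization, 0.20 with P control scaling and -0.60 with subtraction of the empty-spot median. It ran from -0.28 to -0.19 without 1 repeat spot. The median gap to the nearest standard probe was 0.594 under the settings with 1 factor per array (75th percentile, none, P controls, standard median), 0.759 with subtraction and 0.238 to 0.438 without 1 repeat spot. The causes were not tested.

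Over all probes of the chip, the counts of 23 male-higher and 8 female-higher became 74 and 0 without normalization, 108 and 0 with P control scaling, 49 and 0 with the standard median, 41 and 31 with subtraction, 30 and 4 with cyclic loess and 27 and 15 with offset 16. They were 24 and 8 with 75th percentile scaling, 19 and 7 with the median of spots and 20 and 6 with far spots left out. With the authors' deposited table they were 22 and 7, and at the size limit of 1.5 they were 7 and 0.

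The class of close targets kept 10 members with overhanging bases counted, had 9 by edit distance, without novel_47, 7 at a limit of 2 mismatches and 11 at a limit of 4, with novel_23. Among values of 26 named probes under the alternatives, 320 moved by less than the spot SD of both arrays combined and 96 moved by more. Of the called differences, 0 changed sign. For novel_4 the combined SD was wide through its far female spot (SD 1.36 on the female array). Alternatives that lost the call of novel_4 thus count among the 320. No paired analysis was possible because each sex had 1 array. Signal near that of empty spots limits all dim probes.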
